A study of Mus musculus with 22 samples.

Results

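Acetylation of histone H3 at lysine 27 (H3K27ac), a mark of active promoters and enhancers, and trimethylation at lysine 9 (H3K9me3), a mark of heterochromatin, were examined at 8 mouse genes for transcription factors of the endoderm: Foxa1, Foxa2, Gata4, Gata6, Sox7, Sox17, Hnf4a and Gsc. The genes were chosen by name. Every region of the authors' tables that overlapped a gene's mm10 extent widened by 20 kb on each side was taken as belonging to it. That gave 68 of 135566 H3K27ac regions, at 7 of the 8 genes, and 1 of 68845 H3K9me3 regions. Foxa1 had no region of either mark.

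The endoderm gives rise to the gut and its glands, and its extraembryonic branch, the primitive endoderm, forms the yolk sac lining next to the epiblast of the blastocyst. In the primitive endoderm Gata6 acts early and Sox17, Gata4 and Sox7 follow it, while in the embryo Foxa2, Sox17 and Gsc mark the forming definitive endoderm and the organizer. Foxa and Gata proteins can bind sites in closed chromatin, and Hnf4a, a nuclear receptor, acts in the visceral endoderm, liver and gut. Pluripotent cells are known to keep most of these genes silent.

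The cells were derived from C57BL/6 mouse embryonic fibroblasts by transduction. All groups received Sox2, Klf4 and c-Myc. The C2 line also received the artificial zinc-finger factors ZFATF1, ZFATF2 and ZFATF3, the C3 line received ZFATF1, ZFATF2 and ZFATF4, and the OSKM line received Oct4 in their place. Induced pluripotent stem (iPS) cells of these 3 lines gave 2 libraries per line and mark, 12 in all. They carried an Oct4-MerCreMer and Tomato/GFP reporter and were treated with 100 nM 4-hydroxytamoxifen. Chromatin immunoprecipitation (ChIP) of the HA tag used C2+SKM cells 20 days after transduction, which still made the artificial factors and were not fully reprogrammed, and cells given an empty vector with Sox2, Klf4 and c-Myc (Empty), with 2 libraries each. The factors and the line go together, with each line standing for 1 factor set, so their effects cannot be told apart. C2 and OSKM shared a pair of histone input samples while C3 had its own, and this difference cannot be told apart from the line either.

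Reads in H3K27ac regions ranged from 7033486 (C2 replicate 2) to 17649231 (C3 replicate 1) per library, and in H3K9me3 regions from 3412599 to 8548902. The label of pluripotent cells was checked on 14 genes of naive pluripotency, all of which had an H3K27ac region in these cells. Summed over each gene's highest region, they reached 20000 to 29000 scaled reads in C2, 27900 to 42900 in C3 and 50500 to 51300 in OSKM. A scaled read is a recovered read multiplied by a library factor that puts the 6 libraries of a mark on 1 scale, and 1 H3K27ac read was worth 0.789 to 1.34 scaled reads. For 13 of 14 fibroblast genes, those with a region, from the cells of origin, the sums were 2090 to 3370 in all lines. How the replicates of a line were made is not labelled, so p-values measure only the spread between these libraries, which may be technical. ChIP of mixed cells cannot tell apart fewer cells carrying a mark from less of it in each cell.

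The promoter sequences of 4 of the 8 members were found in the RefSeq table (build GRCm38.p6, the mm10 assembly), 7 start sites in all, each as 250 bases before and 50 after the start. Those below are shown because their acetylation differed: a Foxa2 start lay in a region that rose in C2 and C3, an Hnf4a start in a region that rose in C3, a Gsc start in a region that was not called, and the Foxa1 start in no region. A second Foxa2 start is shown with its motif matches. All read 5′ to 3′ on the gene's strand. Capitals mark matches on either strand to short motifs. The motif searched for the Gata factors was GATAAG, that for forkhead factors was TGTTTAC, those for Sox factors were ACAATG and also ACAAAG, and that for Hnf4 was CAAAGTCCA.
Foxa2, chr2:148046920-148047219, minus strand: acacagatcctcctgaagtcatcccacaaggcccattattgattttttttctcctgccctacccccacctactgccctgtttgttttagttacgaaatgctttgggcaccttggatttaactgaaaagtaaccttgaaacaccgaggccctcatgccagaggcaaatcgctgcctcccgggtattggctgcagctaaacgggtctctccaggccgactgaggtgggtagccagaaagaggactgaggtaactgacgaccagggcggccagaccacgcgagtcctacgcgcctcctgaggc
Foxa2, second start, chr2:148045415-148045714, minus strand: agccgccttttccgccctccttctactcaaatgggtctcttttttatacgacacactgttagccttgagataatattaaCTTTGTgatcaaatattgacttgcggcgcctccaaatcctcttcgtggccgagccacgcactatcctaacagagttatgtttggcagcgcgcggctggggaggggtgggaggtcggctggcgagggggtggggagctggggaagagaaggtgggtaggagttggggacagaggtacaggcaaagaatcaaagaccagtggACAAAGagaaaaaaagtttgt
Hnf4a, chr2:163506607-163506906, plus strand: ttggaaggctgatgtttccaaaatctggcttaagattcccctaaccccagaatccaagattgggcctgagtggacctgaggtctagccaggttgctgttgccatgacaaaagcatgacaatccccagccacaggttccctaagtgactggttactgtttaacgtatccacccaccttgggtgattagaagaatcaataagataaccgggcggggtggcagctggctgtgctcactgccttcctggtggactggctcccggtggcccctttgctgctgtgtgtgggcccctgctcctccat
Gsc, chr12:104473187-104473486, minus strand: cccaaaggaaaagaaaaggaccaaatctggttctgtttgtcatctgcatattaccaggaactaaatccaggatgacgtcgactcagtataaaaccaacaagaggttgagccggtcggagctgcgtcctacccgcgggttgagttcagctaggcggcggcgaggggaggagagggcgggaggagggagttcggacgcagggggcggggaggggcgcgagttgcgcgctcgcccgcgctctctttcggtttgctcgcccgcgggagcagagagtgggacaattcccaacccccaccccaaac
Foxa1, chr12:57546062-57546361, minus strand: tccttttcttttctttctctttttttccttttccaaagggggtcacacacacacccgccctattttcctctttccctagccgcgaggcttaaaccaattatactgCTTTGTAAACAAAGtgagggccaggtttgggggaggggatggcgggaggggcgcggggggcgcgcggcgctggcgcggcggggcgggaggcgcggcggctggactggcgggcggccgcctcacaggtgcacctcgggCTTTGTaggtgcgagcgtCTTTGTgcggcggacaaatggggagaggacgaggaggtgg

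The second Foxa2 start had a Sox match on each strand, at positions 80 and 280 counted from the 5′ end. The Foxa1 promoter held 4 Sox matches and 1 forkhead match, and the forkhead match at position 110 overlapped the Sox matches at positions 106 and 114. The first Foxa2 start, Hnf4a and Gsc held none in these 300 bases. Of 32851 promoters of this length, 28.6% held a Sox match, 7.44% a GATA match, 3.65% a forkhead match and 0.475% an Hnf4 match. The matches are a description of letters. Of the promoters shown, the H3K27ac regions covered all 300 bases of both Foxa2 starts, 63 bases of Hnf4a and 180 bases of Gsc.

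In both lines made without Oct4, H3K27ac was higher than in OSKM at regions of Foxa2, Gata4 and Sox17: 6 of 10, 10 of 20 and 2 of 4 regions tested rose in C2, and 9, 14 and 3 rose in C3. Each pair of lines was compared with limma on log2(normalized reads + 1), and a region was called when its p, adjusted by Benjamini-Hochberg over all regions kept, was under 0.05. In C2 against OSKM, 63 of the 68 regions were tested, 20 rose and 1 fell, where 5.21% of all 100957 regions tested rose and 5.38% fell. The 20 lay at Foxa2 (6), Gata4 (10), Gata6 (2) and Sox17 (2). In C3 against OSKM, 64 were tested, 37 rose and 2 fell, where 13.5% of all 101600 rose and 8.52% fell. The 37 lay at all 7 genes with a region. The median log2 fold change was 1.98 over the regions tested in C2 and 2.65 in C3, against -0.013 and 0.032 over all regions, and with regions at the floor in OSKM set to their bound it was 1.98 (C2) and 2.56 (C3). The rule for a region to enter the tables is not labelled, and some peaks of a single library entered no region. A region high in 1 line can enter, and passes the filter on low values, through that line. These counts therefore describe the members and do not test them. The 2 comparisons share the OSKM libraries. A fit without 1 library takes its spread from the line that keeps 2, so its p-values leave out the spread of the other line.

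All 21 calls in C2 and all 39 in C3 were also made by edgeR on the recovered reads, which called 25 and 42, where it called 14.5% and 23.4% of all regions. Both libraries of C2 lay above both of OSKM in 42 regions (28.8% of all regions did), and both of C3 in 47 (32.2%). In 22 of the 68 regions both OSKM libraries were at the lowest value in the tables, 1 read (32.4%, against 31.2% of all regions). For these a fold is given as a lower bound against 3 reads per library. That bound is for the values as given, and would not hold for raw reads if control reads were subtracted.

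**Figure D1:**
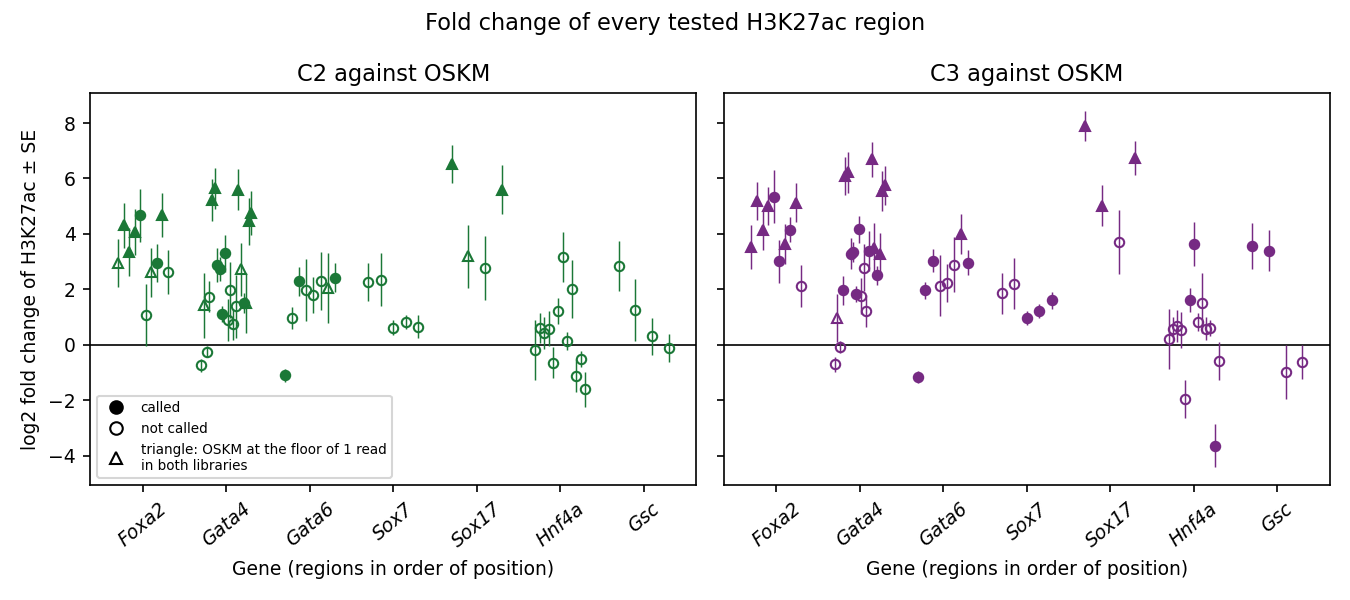
Log2 fold change (± SE) of each tested H3K27ac region against OSKM, by gene and in order of position, for C2 (left) and C3 (right). Filled symbols were called, and triangles mark regions where OSKM stood at 1 read in both libraries, whose fitted values are no bound. Foxa2, Gata4 and Sox17 hold most of the filled symbols, and 1 Gata6 region lies below 0 in both panels.

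Foxa2 encodes a forkhead factor of the node, notochord and endoderm, and lies at chr2:148042877-148046969. Summed over its 11 regions, H3K27ac was 732 and 321 scaled reads in the C2 libraries, 1064 and 620 in C3, and 23.7 and 47.8 in OSKM. Every C2 and C3 library stood above both OSKM libraries. The sum was higher in C2 by 3.81 ± 0.46 (log2, SE; adjusted p = 0.00105 by limma over all genes) and in C3 by 4.59 ± 0.34 (1.51e-08), where 7.01% and 15.6% of all 29883 genes had a higher sum. Of 10 regions tested, 6 rose in C2 and 9 in C3.

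The region over the first Foxa2 start, chr2:148046427-148047498, had 62.2 and 43.0 scaled reads in C2, 79.7 and 55.8 in C3, and 1.08 and 0.957 in OSKM, which is 1 read in each library. It was at least 17.3-fold higher in C2 (adjusted p = 0.017) and at least 22.2-fold higher in C3 (0.00473). The region over the gene body and the other starts, chr2:148043241-148045961, held 228 and 53.7 in C2, 344 and 177 in C3, and 9.68 and 18.2 in OSKM, a log2 difference of 2.96 ± 0.69 in C2 (adjusted p = 0.0346) and 4.15 ± 0.46 in C3 (0.00347). The C2 call rested on replicate 1: without it the difference was 1.94, with adjusted p = 0.135.

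Downstream of Foxa2 the highest region, chr2:148038269-148040482, lay 2.4 kb from the gene and overlapped the neighbouring transcript 9030622O22Rik. It had 245 and 102 scaled reads in C2, 359 and 162 in C3, and 1.08 and 17.2 in OSKM. The OSKM libraries differed from each other here, and every C2 and C3 library stood above both. The log2 difference was 4.67 ± 0.95 in C2 (adjusted p = 0.0255) and 5.35 ± 0.94 in C3 (0.00865). Leaving out a C2 or C3 library ended the call, with adjusted p = 0.116 without C2 replicate 1, 0.0731 without C2 replicate 2, 0.0895 without C3 replicate 1 and 0.0571 without C3 replicate 2. The call stood without OSKM replicate 1 (3.12 in C2 and 3.76 in C3) and without OSKM replicate 2 (6.23 and 6.93), and its size moved with the library left out. Farther downstream, also overlapping 9030622O22Rik, regions 4.72 and 11.9 kb from Foxa2 (chr2:148037118-148038155 and chr2:148029947-148030967) were at 1 read in both OSKM libraries. The nearer one had 43.6 and 25.5 scaled reads in C2 and 67.1 and 55.8 in C3, and the farther one 43.6 and 36.3 in C2 and 78.1 and 60.9 in C3. They were at least 11.3-fold and 13.1-fold higher in C2 (adjusted p = 0.0258 and 0.0207). In C3 they were at least 20.2-fold and 22.8-fold higher (0.00488 and 0.00451). Among the Foxa2 regions named here, 3 calls in C2 were lost with quantile normalization. These were the regions 2.4 and 4.72 kb downstream and the gene body (adjusted p = 0.0808, 0.0521 and 0.101).

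Foxa1, which overlaps with Foxa2 in its functions in the gut and liver, stood apart. No H3K27ac region lay in its window (chr12:57540628-57548029 widened by 20 kb), and the nearest, 24.4 kb away, held 22 and 22 reads in C2, 17 and 36 in C3, and 39 and 54 in OSKM. Of 21887 protein-coding genes, 88.0% had an H3K27ac region in a window of this kind. The authors' peak lists gave Foxa1 a single peak, of 279 bp, in C3 replicate 2.

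**Figure D2:**
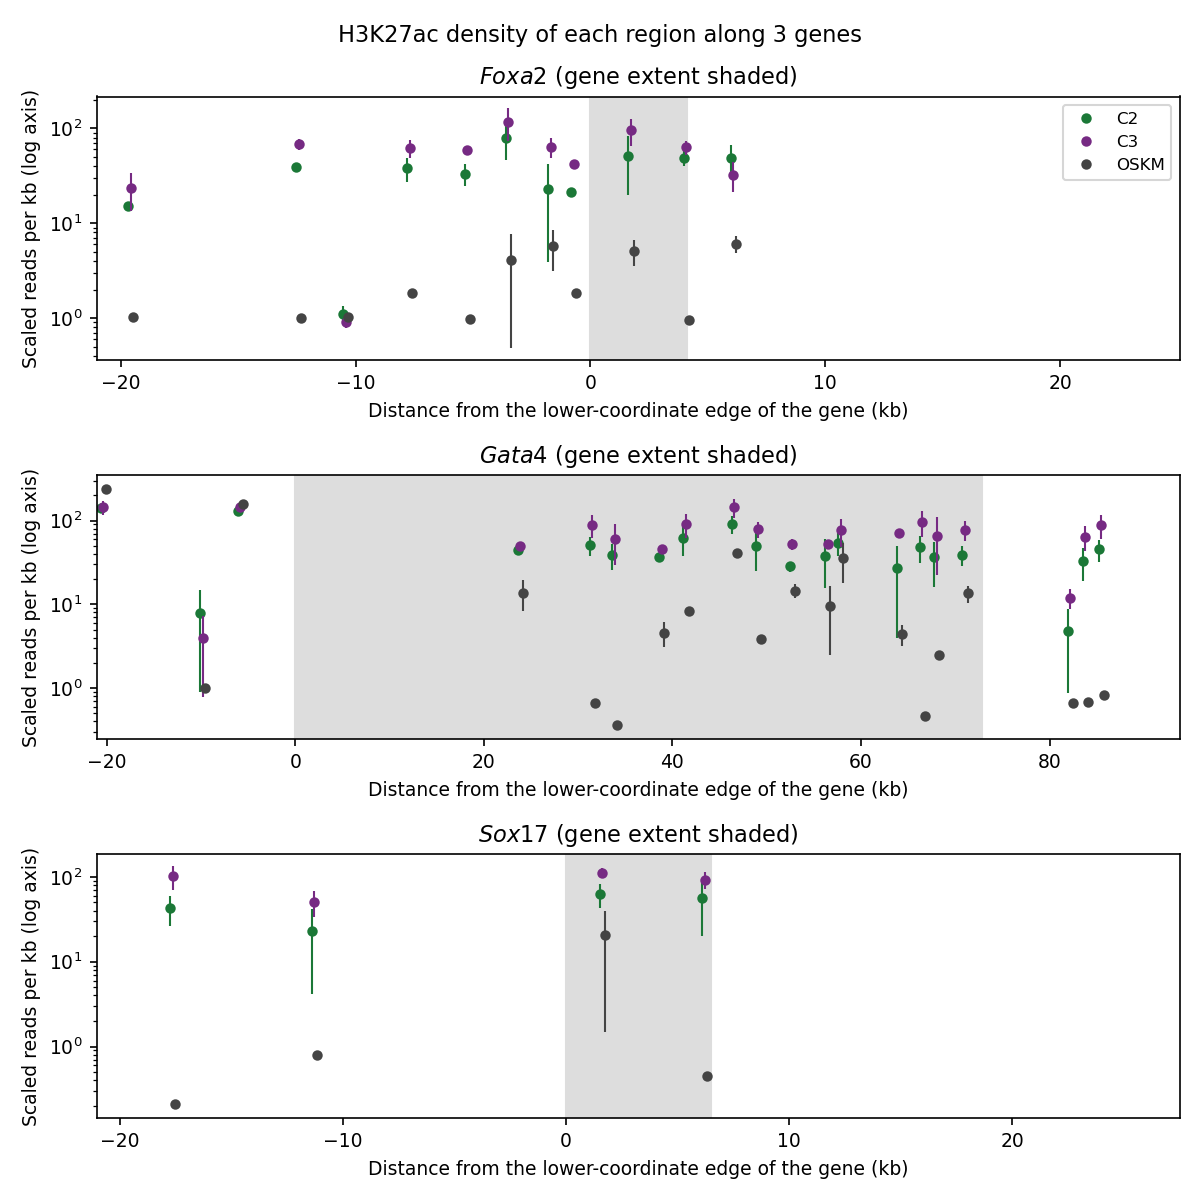
H3K27ac density (scaled reads per kb of region, log axis) of each region against its distance in kb from the lower-coordinate edge of Foxa2, Gata4 and Sox17, whose extents are shaded. Points are means of 2 libraries and lines join the libraries. The means of C2 and C3 stand above OSKM at most regions of the shaded genes, while the region 3.96 kb left of Gata4 is level in the 3 lines.

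Gata4, a zinc-finger factor of the endoderm and heart, lies at chr14:63198914-63271712 and had the most regions, 20. Their sum was 2576 and 1600 scaled reads in C2, 3782 and 2376 in C3, and 1075 and 1222 in OSKM. The lowest C2 library was above the higher OSKM library, with a log2 difference of 0.83 ± 0.22 (adjusted p = 0.021, and 0.159 without OSKM replicate 1), and the difference for C3 was 1.42 ± 0.22 (3.79e-05). All 20 were tested, 10 rose in C2 and 14 in C3.

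The sum understates how far the Gata4 gene body differed, because the highest region in the window belonged to a neighbour. That region, chr14:63191215-63194959 in Neil2, a DNA glycosylase gene, was level: 523 and 465 scaled reads in C2, 551 and 527 in C3, and 599 and 578 in OSKM. Its log2 difference was -0.25 ± 0.19 in C2 (adjusted p = 0.42) and -0.090 ± 0.21 in C3 (0.779). A region in Fdft1, at the edge of the window, was not called either (-0.74 in C2 and -0.71 in C3, with adjusted p = 0.0726 and 0.0901).

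Inside Gata4, the region chr14:63264306-63266492 had 143 and 68.5 scaled reads in C2 and 283 and 139 in C3, and 1 read in each OSKM library. It was at least 34.7-fold higher in C2 (adjusted p = 0.0112) and at least 69.3-fold higher in C3 (0.0031). The same held for chr14:63231396-63234178, with 147 and 71.2 in C2 and 253 and 81.6 in C3, at least 35.7-fold (0.0109) and 54.9-fold (0.00378) higher. Gata4 regions were thus not alike in OSKM: 8 of the 20 stood at 1 read in both libraries, and others carried acetylation there too. The region at the right edge of the gene, chr14:63267409-63272440, held 249 and 145 in C2, 493 and 284 in C3, and 52.7 and 84.2 in OSKM.

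That edge region rose by 1.50 ± 0.35 in C2 (adjusted p = 0.0356) and 2.51 ± 0.35 in C3 (0.00479), on the log2 scale. In C2 the adjusted p was 0.091 without C2 replicate 1, 0.0783 without OSKM replicate 1 and 0.0569 with quantile normalization. The region with the most reads within Gata4, chr14:63243865-63247091, had 367 and 222 in C2, 580 and 351 in C3, and 118 and 145 in OSKM, a rise of 1.12 ± 0.28 in C2 (0.0441) and 1.81 ± 0.29 in C3 (0.00663). Its call in C2 was lost without C2 replicate 1 (0.76, adjusted p = 0.0605) and without OSKM replicate 1 (0.96, 0.154). It was also lost in a joint fit of the 6 libraries (0.0519), and the authors' deposited table gave an FDR of 0.0924. To its left lay chr14:63238716-63242010, with 284 and 125 in C2, 393 and 206 in C3, and 24.7 and 30.6 in OSKM, which rose by 2.73 ± 0.42 in C2 (0.0141) and 3.36 ± 0.36 in C3 (0.00338). To the right of the gene, 10.3 and 12.1 kb away, a pair of regions at 1 read in OSKM rose in both lines. The farther one was at least 18.6-fold higher in C2 (0.017) and at least 35.8-fold higher in C3 (0.00381).

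Gata6 is the early factor of the primitive endoderm and lies at chr18:11052510-11085636. Its 8 regions summed to 1238 and 627 scaled reads in C2, 1593 and 1134 in C3, and 777 and 782 in OSKM. The C2 libraries lay on both sides of OSKM, while both C3 libraries lay above it. The log2 difference was 0.18 ± 0.27 in C2 (adjusted p = 0.635) and 0.82 ± 0.20 in C3 (0.00347). The C3 call was lost without OSKM replicate 1 (adjusted p = 0.194) or replicate 2 (0.158), and within 5 kb of the gene the C2 sum was called higher (1.34, 0.0135). The C2 difference for Gata6 turned to -0.30 without C2 replicate 1 and was 0.66 without C2 replicate 2.

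Gata6 regions changed in both directions. The highest, chr18:11047899-11054595, over the left edge of the gene and its antisense partner Gata6os, had 551 and 224 scaled reads in C2, 859 and 552 in C3, and 146 and 223 in OSKM. C2 replicate 2 was thus level with OSKM, and the region was called in C3 (1.96 ± 0.30, adjusted p = 0.0062) and not in C2 (0.96 ± 0.40, 0.156). In C2 the difference was 1.60 without C2 replicate 2, 1.27 without OSKM replicate 2 and 0.32 without C2 replicate 1. The region chr18:11038268-11041859, 10.7 kb to the left, went the other way, with 293 and 204 in C2, 234 and 227 in C3, and 552 and 507 in OSKM. It fell by 1.11 ± 0.23 in C2 (0.0262) and by 1.16 ± 0.21 in C3 (0.00878). Its fall in C2 had adjusted p = 0.109 without OSKM replicate 1, 0.0589 without OSKM replicate 2 and 0.0661 with quantile normalization, and its fall in C3 0.0509 without OSKM replicate 1. The authors' deposited table gave the fall in C2 an FDR of 0.0767. At the right end of the gene, chr18:11081845-11084008 held 112 and 61.8 in C2, 116 and 121 in C3, and 20.4 and 10.5 in OSKM, and rose by 2.42 ± 0.53 in C2 (0.0301) and 2.96 ± 0.44 in C3 (0.00576). Next to the highest region, chr18:11054731-11056444 had 126 and 53.7 in C2, 178 and 103 in C3, and 19.4 and 13.4 in OSKM, and rose by 2.28 ± 0.53 in C2 (0.0357) and 3.03 ± 0.43 in C3 (0.0051). The C2 calls of these 2 regions were lost without C2 replicate 1 (2.00 and 1.68, adjusted p = 0.116 and 0.136) and with quantile normalization (0.0772 and 0.0924), and that of the right end also without C2 replicate 2 (0.0511). A small region between them, chr18:11080797-11081337, was at 1 read in OSKM, with 29.3 and 1.34 in C2 and 24.5 and 36.1 in C3. It was at least 9.94-fold higher in C3 (0.00961), with adjusted p = 0.322 in C2. Without C2 replicate 2 its C2 log2 difference was 3.87.

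Sox17, an HMG-box factor of the primitive and definitive endoderm, lies at chr1:4490928-4497426 and was almost bare of acetylation in 1 of the OSKM libraries. Its 4 regions summed to 735 and 271 scaled reads in C2, 1263 and 753 in C3, and 6.45 and 89.9 in OSKM, a log2 difference of 4.10 ± 0.96 in C2 (adjusted p = 0.0144) and 5.27 ± 0.65 in C3 (3.26e-06). The OSKM libraries were far apart, and this came from 1 region within the gene. There, at chr1:4491456-4493654, C2 had 180 and 95.3, C3 had 280 and 215, and OSKM had 3.23 and 87.1, so that OSKM replicate 2 stood just below C2 replicate 2, and the region was not called (2.77 ± 1.16 in C2, adjusted p = 0.155, and 3.72 ± 1.15 in C3, 0.0542).

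The highest Sox17 region, chr1:4470914-4475698, lies 15.2 kb to the left of the gene. It held 288 and 125 scaled reads in C2 and 635 and 333 in C3, and 1 read in each OSKM library. It was at least 67.7-fold higher in C2 (adjusted p = 0.00937) and at least 159-fold higher in C3 (0.00246), the lowest adjusted p of any member region in each comparison. At the right edge of the gene, chr1:4496011-4498286 had 213 and 45.7 in C2 and 261 and 162 in C3, again with 1 read in each OSKM library, and was at least 42.5-fold (0.0151) and 69.4-fold (0.00304) higher. A region 10.6 kb to the left, chr1:4479010-4480292, had 54.2 and 5.37 in C2 and 86.8 and 43.4 in C3, and was at least 21.4-fold higher in C3 (0.00559). In C2 limma gave it adjusted p = 0.108, while edgeR called it (0.0381), and the authors' deposited table gave an FDR of 0.000607. The other Sox17 calls were kept in every alternative fit and without each library in turn, but the size of the sum rested on OSKM. It was 2.29 in C2 and 3.45 in C3 without OSKM replicate 1, and 5.91 and 7.08 without OSKM replicate 2.

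Sox7, of the same Sox subfamily and a factor of the parietal endoderm, lies at chr14:63943706-63950732 and was acetylated in all 3 lines. Its 5 regions summed to 835 and 536 scaled reads in C2, 1028 and 721 in C3, and 398 and 357 in OSKM, with no overlap between OSKM and the others. The log2 difference was 0.83 ± 0.23 in C2 (adjusted p = 0.0248) and 1.23 ± 0.22 in C3 (0.000178). The C2 call on the sum of Sox7 was lost without OSKM replicate 1 (0.0706) or replicate 2 (0.146). The highest region, chr14:63941038-63943554, ended 0.152 kb from the gene and had 352 and 223 in C2, 426 and 301 in C3, and 157 and 159 in OSKM. It rose in C3 by 1.21 ± 0.25 (0.013), and in C2 the difference was 0.82 ± 0.26 (0.078). In C2 edgeR called it (0.0247), as did the fit with no filter (0.0427), and without C2 replicate 2 the difference was 1.15. By limma 0 of 5 Sox7 regions were called in C2, and 3 rose in C3. Of these, chr14:63938187-63940873 had 269 and 183 in C2, 324 and 238 in C3, and 165 and 127 in OSKM. It rose in C3 (0.97 ± 0.26, 0.0328), but was not called without C3 replicate 1 (0.0823) or OSKM replicate 2 (0.172), nor with median-centred libraries (0.0592), and the authors' deposited table gave an FDR of 0.0876. The third, chr14:63943602-63945274, had 125 and 60.4 in C2, 198 and 138 in C3, and 47.3 and 64.1 in OSKM. It rose in C3 (1.61 ± 0.31, 0.0113), a call lost without C3 replicate 1 (0.0524).

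Hnf4a, a nuclear receptor that drives genes of lipid transport in the visceral endoderm and liver, lies at chr2:163506811-163572907 and differed little as a whole. Its 16 regions summed to 740 and 638 scaled reads in C2, 1273 and 912 in C3, and 567 and 924 in OSKM. C2 lay within the OSKM range, and OSKM replicate 2 was above C3 replicate 2. The log2 difference was -0.074 ± 0.23 in C2 (95% interval -0.60 to 0.45, adjusted p = 0.826) and 0.61 ± 0.23 in C3 (0.0496, with 0.791 without OSKM replicate 1 and 0.0683 without OSKM replicate 2). The highest region, chr2:163514697-163518398, with 328 and 210 in C2, 700 and 438 in C3, and 311 and 450 in OSKM, was not called in either comparison (adjusted p = 0.271 and 0.191).

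The Hnf4a region over the printed start, chr2:163506844-163507446, was different. It had 33.8 and 13.4 scaled reads in C2, 43.4 and 18.6 in C3, and 1.08 and 1.91 in OSKM, and rose in C3 by 3.64 ± 0.79 (adjusted p = 0.0162), with 3.16 ± 0.89 and 0.0588 in C2. For C2 edgeR called it (0.0353), as did the joint fit (0.0391) and the fit with median-centred libraries (0.047). The authors' deposited table gave an FDR of 0.000154. These are few reads, 55 and 18 in C3 against 1 and 2. The region chr2:163502461-163504011, 2.8 kb before the gene, overlapped the antisense transcript Hnf4aos and the neighbouring gene R3hdml. It had 53.3 and 59.1 in C2, 79.7 and 67.1 in C3, and 18.3 and 30.6 in OSKM, and rose in C3 by 1.62 ± 0.43 (0.033). That call was lost without C3 replicate 1 (0.129), without C3 replicate 2 (0.0876), without OSKM replicate 1 (0.114) and with quantile normalization (0.0552). In the gene, chr2:163535152-163535476 fell in C3 by 3.64 ± 0.78 (0.0156), with 0.789 and 3.10 scaled reads against 29.0 and 37.3 in OSKM and 12.5 and 8.06 in C2. At the second RefSeq start of Hnf4a, chr2:163546905-163547204, no H3K27ac region was found.

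Gsc, a homeobox gene of the organizer and anterior endoderm, lies at chr12:104471209-104473236 and had few reads. Its regions summed to 103 and 63.1 scaled reads in C2, 70.2 and 127 in C3, and 54.8 and 51.7 in OSKM. Neither sum was called (0.59 ± 0.42, adjusted p = 0.295 in C2, and 0.85 ± 0.42, 0.126 in C3). Without C3 replicate 1 the C3 difference was 1.27. The region over its start, chr12:104472998-104473366, had 28.5 and 14.8 in C2, 2.37 and 21.7 in C3, and 20.4 and 13.4 in OSKM, so the lines overlapped. The highest region, chr12:104474124-104474923, did too, with 32.0 and 25.5 in C2, 12.6 and 29.9 in C3, and 26.9 and 36.4 in OSKM. The regions that rose in C3 lay 18.2 and 17.1 kb downstream: chr12:104451952-104453010 by 3.56 ± 0.84 (0.022) and chr12:104453601-104454157 by 3.39 ± 0.74 (0.0168). In the first of these, C3 had 28.4 and 53.7 scaled reads, C2 28.5 and 21.5, and OSKM 5.38 and 0.957. In the second, C3 had 26.8 and 21.7, C2 14.2 and 1.34, and OSKM 2.15 and 0.957. The first call was lost without C3 replicate 1 (0.0539) or C3 replicate 2 (0.0881), and both calls with quantile normalization (0.0746 and 0.0532).

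**Figure D3:**
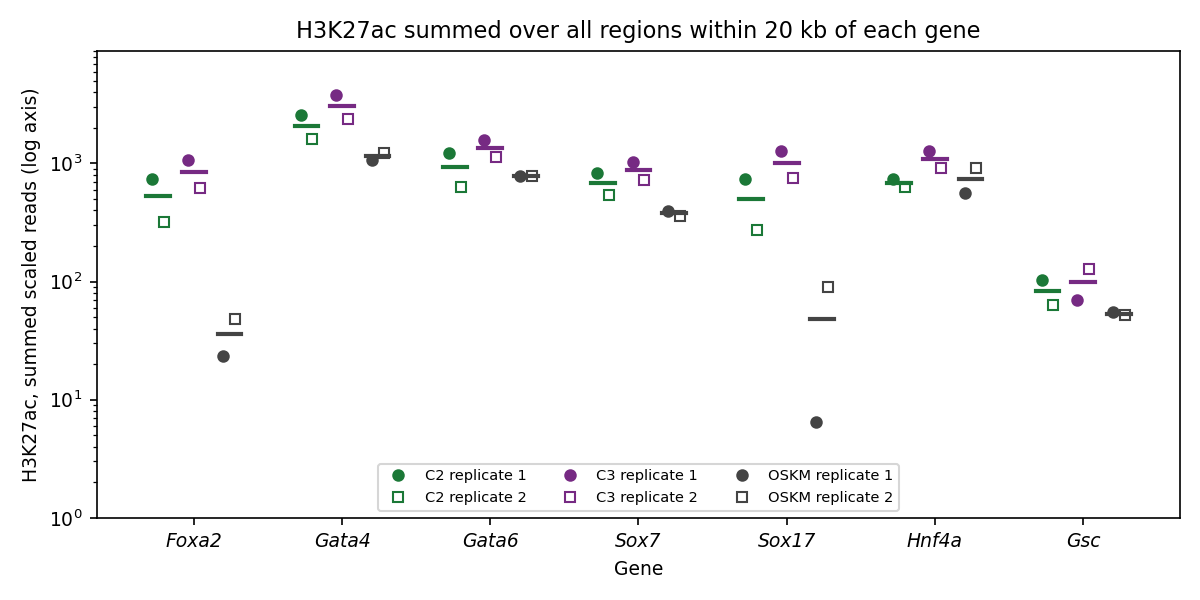
H3K27ac summed over all regions within 20 kb of each gene (scaled reads, log axis), for the 2 libraries of each line, with bars at the means. OSKM stands below both other lines for Foxa2, Gata4, Sox7, Sox17 and Gsc and among them for Gata6 and Hnf4a, and C2 replicate 2 is below C2 replicate 1 in every gene.

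Per kb of region, the mean H3K27ac sum in OSKM was lowest at Foxa2 and Sox17 of the 7 genes. It was 2.95 scaled reads per kb at Foxa2 and 4.59 at Sox17, against 19.1 at Gsc, 31.6 at Gata4, 37.3 at Hnf4a, 43.8 at Gata6 and 45.3 at Sox7. In C3 it ran from 35.3 at Gsc and 54.6 at Hnf4a to 105 at Sox7, with Foxa2 at 69.6 and Sox17 at 96.0. The Gata4 value holds the level region of Neil2.

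No member region was called between C2 and C3, where 0.0581% of all 101532 regions were, and no sum was, where 1.05% of all genes were. Of the 63 regions tested, 9 had an unadjusted p under 0.05, where 12.3% of all regions did, and edgeR called 0. The log2 difference was negative, with C2 below C3, in 50 of the 63, with a median of -0.61 against -0.061 over all regions. The widest differences in the sums were at Sox17 (-1.12 ± 0.35, 95% interval -1.85 to -0.39, adjusted p = 0.125) and Foxa2 (-0.74 ± 0.33, -1.43 to -0.054, 0.318). The count depended on the libraries, and the fits that left 1 out drew their spread from 1 line. Without C2 replicate 1, 19 regions were called, where 8.87% of all regions were, and the sums of Sox17 (-1.84, 0.000109) and Foxa2 (-1.34, 0.0117) were called too. Without C3 replicate 2 the number was 5, where 2.6% of all regions were called, with sums of -1.50 (0.00245) and -1.13 (0.0378). Without C2 replicate 2 or C3 replicate 1 it was 0.

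The C2 libraries differed from each other at these genes. C2 replicate 1 was above replicate 2 in 55 of 63 member regions (87.3%), against 59.5% of all regions, with a median log2 ratio of 0.76 against 0.19. In C3, replicate 1 was above in 47 (74.6%, against 51.8%), with 0.51 against 0.037, and in OSKM in 31 (49.2%, against 49.6%). The sums of replicate 1 were 1.16 times (Hnf4a) to 2.71 times (Sox17) those of replicate 2 in C2. C2 replicate 2 had 76915 peaks and a median fold enrichment of 3.62, while replicate 1 had 116945 and 4.20, and it had the fewest reads in regions. Whether the depth or enrichment of this library had a part in the member values was not tested. Without it, 30 member regions were called in C2 against OSKM, where 17.1% of all regions were, and without replicate 1 the number was 20, where 24.7% were.

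The authors' peak lists, made in each library separately, were compared by the length they covered. At Foxa2, peaks covered 7.32 and 0.462 kb in C2, 12.3 and 6.89 kb in C3, and none in OSKM. At Sox17 they covered 7.97 kb and none in C2, 9.61 and 7.46 kb in C3, and none and 0.784 kb in OSKM. Gata4 had 24.6 and 5.65 kb in C2, 34.2 and 21.9 kb in C3, and 5.24 and 6.10 kb in OSKM. Hnf4a was again mixed, with 6.28 and 1.95 kb in C2, 10.8 and 8.34 kb in C3, and 4.06 and 5.99 kb in OSKM. Both libraries had a peak at 5 of the 8 genes in C2, 7 in C3 and 4 in OSKM. The whole lists differed too, with 116945 and 76915 peaks in C2, 109671 and 109985 in C3, and 86571 and 87998 in OSKM. The share of all genes with such a peak was not counted, so these lengths and counts only describe the members.

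**Figure D4:**
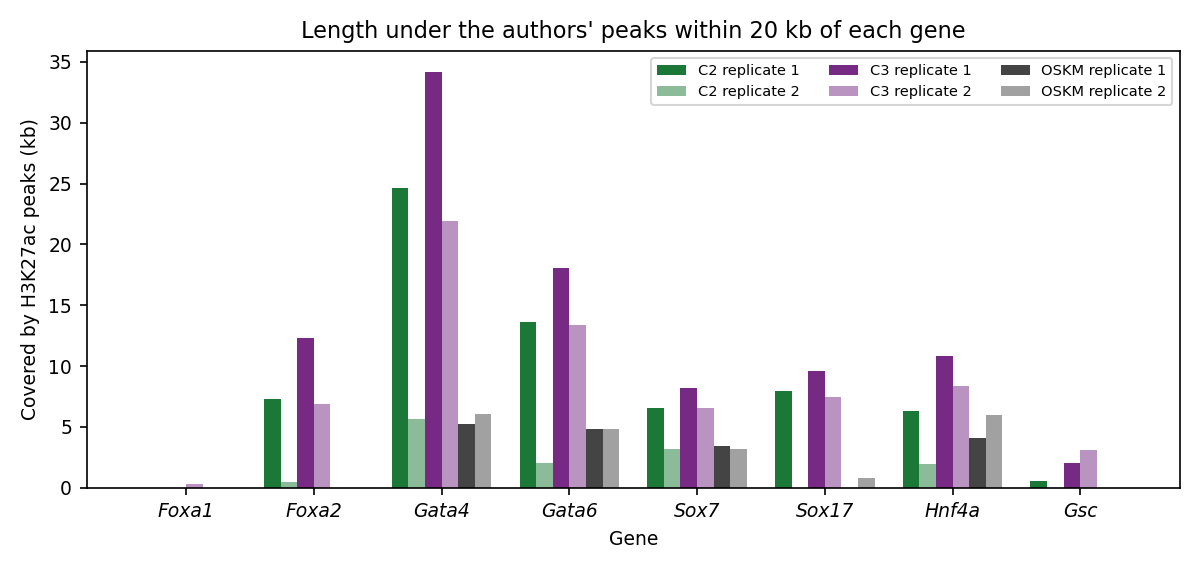
Length in kb under the authors' H3K27ac peaks within 20 kb of each gene, with 1 bar per library. The tallest bar is a C3 library for each of the 7 genes with a region, C2 replicate 2 is shorter than C2 replicate 1 in each, and Foxa2 and Gsc have no peak in OSKM.

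H3K9me3 regions were few at these genes. A region of this mark lay within 20 kb of 58.1% of 21887 protein-coding genes, and of the members only Gata4 had one. The nearest region was 29.5 kb from Gsc, 36.3 kb from Hnf4a, 48.2 kb from Sox17, 53.2 kb from Gata6, 55.9 kb from Foxa1, 106 kb from Foxa2 and 234 kb from Sox7. Single peaks of this mark that entered no region lay at Sox7 in C3 replicate 1 (219 bp) and at Gsc in OSKM replicate 1 (271 bp). The Gata4 region, chr14:63280167-63281007, 8.46 kb to the right of the gene, had 28 and 27 reads in C2, 30 and 19 in C3, and 3 and 19 in OSKM. It was not called in C2 against OSKM (2.29 ± 0.73, adjusted p = 0.119), where 3.29% of 51633 regions were, in C3 against OSKM (1.84 ± 0.76, 0.168), where 9.06% were, or in C2 against C3 (0.48 ± 0.49, 0.835), where 0.134% of 51632 were. Its unadjusted p was under 0.05 in the first 2 comparisons, edgeR gave adjusted p = 0.137, 0.186 and 0.882, and the authors' deposited table gave an FDR of 0.0109, 0.0426 and 0.963. Without C2 replicate 1 the first comparison was called, where 16.1% of all H3K9me3 regions were. The region overlapped an H3K27ac region by 657 bp, at which C3 was at least 6.08-fold above OSKM (0.0191) with 23.7 and 13.4 scaled reads.

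Peaks of the HA tag, which the artificial factors carry, were not set apart at these genes from those of the Empty cells. The share of all genes with such a peak was not counted. C2+SKM cells had 1 peak (replicate 1) and 8 peaks (replicate 2) within the windows, and Empty cells had 3 and 5, in lists of 12376 and 44939 peaks for C2 and 10666 and 22632 for Empty. They lay at Hnf4a, Gata4 and Sox17 in both kinds of cells, and Foxa1, Foxa2, Gata6, Sox7 and Gsc had none in any of the 4 libraries. The peak with the highest fold enrichment, 10.1 in C2 replicate 2 at chr14:63280271-63280797 near Gata4, had a counterpart of 9.73 in Empty replicate 2, and both lay over the region that holds H3K9me3. At Sox17 the C2 replicate 2 peak chr1:4484236-4484903 (9.89) overlapped an Empty peak (6.36), and 2 further C2 peaks, 0.347 and 1.53 kb from the nearest Empty peak, reached 4.61 and 5.93. All 3 lay between the acetylated regions of Sox17 and over none of them. Hnf4a had 4 peaks in C2 replicate 2 and 3 in each Empty library, of which those in C2 replicate 2 lay 0 to 0.459 kb from an Empty peak. Fold enrichment and peak limits are the authors' values, and the duplicate share was high: 2506011 and 3896935 of 30141416 and 46426379 tags were kept in C2 and 1707437 and 1629753 of 25985373 and 26446397 in Empty.

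Other genes of the endoderm were read at the region with the highest mean of each gene, from lists chosen with earlier results of these data known. Over all genes, that region rose in 3.83% and fell in 11.2% of 35494 genes in C2 against OSKM (median -0.35), and rose in 10.5% and fell in 7.81% of 35702 in C3 (median -0.12). Of 24 products of the extraembryonic endoderm, 5 of 22 tested rose in C2 and 1 fell (median 0.40), and 11 of 21 rose in C3 and 1 fell (median 0.90). Col4a1 and Col4a2 share a region, so the 11 genes stand for 10 regions. Among them Dab2, an endocytic adaptor of the visceral and parietal endoderm, was at 1 read in both OSKM libraries, with 156 ± 135 scaled reads in C2 (SD, n = 2; adjusted p = 0.0127) and 324 ± 214 in C3 (0.00304). Lamb1, a laminin chain of the basement membrane, had 608 ± 299 in C2, 1172 ± 598 in C3 and 85.3 ± 81.0 in OSKM (0.0272 and 0.00725), and Srgn, a proteoglycan core protein of the parietal endoderm, 272 ± 71.6, 514 ± 310 and 42.6 ± 23.7 (0.0134 and 0.00508). The gene that fell in both lines was Plat, with 273.5 ± 58.3 in C2, 326 ± 79.4 in C3 and 1331 ± 47.5 in OSKM (0.00927 and 0.00387).

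Signals and receptors did not move one way. Of 12 such genes, 1 rose and 3 fell in C2, and 1 rose and 2 fell in C3. The one that rose in both was Pdgfra, the receptor that marks the primitive endoderm, with 168 ± 69.9 in C2, 273 ± 62.1 in C3 and 25.3 ± 11.5 in OSKM (adjusted p = 0.0165 and 0.00347). Fgfr1 (-1.54, 0.0258), Fgf4 (-0.98, 0.0428) and Nodal (-0.94, 0.0484) fell in C2, and Fgfr1 (-1.14, 0.0324) and Acvr2b (-0.82, 0.0475) in C3. Of 15 other endoderm transcription factors, 0 rose and 0 fell in C2. In C3 Mixl1, a homeobox factor of the primitive streak, fell (-2.44, 0.00792), and 1 result of this list is not reported here. The 9 paralogs of the members showed no rise in C2, where 2 fell, and in C3 1 rose and 2 fell: Gata1 fell in C2 (-1.21, 0.0183) and C3 (-1.06, 0.0171), Hnf4g in C2 (-1.74, 0.0134) and Gata2 in C3 (-1.30, 0.0304), and Gata3 rose in C3 (0.86, 0.0372). Foxa3, the third Foxa gene, was level at 571 and 470 in C2, 536 and 499 in C3, and 593 and 547 in OSKM.

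Markers of other cell types were read in the same way. Of the 14 genes of naive pluripotency 0 rose and 8 fell in C2 (median -1.10), and 0 rose and 1 fell in C3 (median -0.46). That one, Zfp42, a marker of the naive state, had 823 ± 202 in C2, 1480 ± 470 in C3 and 3485 ± 58.3 in OSKM (adjusted p = 0.01 and 0.0306). Prdm14 (log2 difference -1.344, adjusted p = 0.0188) and Klf2 (-1.265, 0.0442) also fell in C2. Of 12 fibroblast genes tested, 2 rose in C2 and 4 in C3 with none lower, among them the collagen genes Col1a2 and Col3a1 in both (adjusted p = 0.0259 and 0.0281 in C2, 0.00416 and 0.00356 in C3). Acta2 rose in C3 (3.82, 0.00514) and was not called in C2 (2.03, 0.152). Of 8 trophoblast genes tested, 1 rose in each line and 3 fell in C3. Elf5, the one that rose, was at 1 read in both OSKM libraries against 39.0 ± 0.129 in C2 and 48.1 ± 21.3 in C3 (0.0209 and 0.00695). Those that fell in C3 were Gcm1 (log2 difference -2.21, adjusted p = 0.00848), Tfap2c (-1.76, 0.0052) and Hand1 (-1.30, 0.0439). Of the defining markers, Postn of fibroblasts and Esx1 of the trophoblast stood at 1 read in all 6 libraries, and Twist2 and Tpbpa had no region. The summed level of the trophoblast genes was 2030 to 2180 in C2, 1850 in both C3 libraries and 2650 to 2800 in OSKM. The part of these cell types in the member values was not tested.

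The genes most like each member were found by the root mean square difference of the log2 values of their highest regions, centred on the mean over the 6 libraries, among 35577 genes. For Foxa2 they were Tmprss7 and BC016579, which share a region (195 and 110 scaled reads in C2, 305 and 165 in C3, 1.08 and 16.3 in OSKM; difference 0.152). For Sox17 they were Glipr1 and Gm46179, also with 1 region (335 and 166, 613 and 290, 1.08 and 0.957; 0.197). For Gata6 they were Gm33315 (0.0897) and Gm35595 (0.137), and for Sox7 Gm5546 (0.0578) and 9930014A18Rik (0.0598). For Hnf4a they were Grik4 and Vmn1r-ps135 (0.0793 and 0.0937), and for Gsc Gm41106 and Gm41107, with 1 region (0.0879). The match of Gata4, Ccdc63 and Ppp1cc (0.022), is to the level region of Neil2 and not to the gene body.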

How the data were processed

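Chromatin immunoprecipitation with sequencing was run on 22 samples: 12 histone libraries, 4 HA libraries and 6 input samples, the last not analysed here. The submitters' processing notes name DiffBind 1.16.2, SAMtools 1.3, Bowtie2 2.2.5 and CASAVA 1.8.2, and the genome build mm10. MACS (2.1.0.20150731 for the histone marks, 2.1.1.20160309 for HA) called peaks per library against an input, per the file headers, at a q-value of 0.01 and keeping no more than 1 tag at a position. In the deposited peak lists the pileup is a signal, the significance a -log10 p-value or q-value and the fold enrichment a ratio. Each deposited region table covers a pair of lines and holds the signal of each library (normalized reads), the log2 of means and fold, and the p-value with its FDR. Columns named N2 were taken as the C3 line, from the table names and the headers of the C3 peak lists. Whether control reads were subtracted is not given in the sources used here. If they were, recovered reads are not raw counts, and the separate input of C3 enters its values. In H3K27ac, 29.9% to 35.9% of regions stood at 1 read, by library. Division by each library's lowest value gave whole reads for 100% of values (tolerance 1e-06).

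Each table was fitted alone with limma 3.58.1 (trend, R 4.3.3) on log2(normalized reads + 1), with the lowest 25% of regions by mean left out. Adjusted p-values are Benjamini-Hochberg over all regions kept, and for the sums over all genes. Values across lines are recovered reads scaled by edgeR 4.0.16 (TMM), with the R package data.table at version 1.17.8, Python 3.11.15, pandas 2.3.3, NumPy 2.4.6, SciPy 1.17.1 and matplotlib 3.10.9. Distances and sides are by coordinate, and gene extents are from RefSeq. On simulated data with 200 changed regions for C2 against OSKM, 66% of 4-fold and 14% of 2-fold changes were recovered and 10.5% of calls were false. For C3 against OSKM these were 66%, 8% and 17.3%, and for C2 against C3 48%, 10% and 11.7%. These shares hold for 200 changed regions and may not carry over to the data. Floors of 3 reads cover counting error only. All 8 members are named. Values per library were given for each member's highest region by mean and up to 4 further called regions, and other lists by the 3 genes of largest change. The Gsc start region, the Sox17 region within the gene, and Gata4-window regions in Fdft1, within the gene and to its right were added after their values were seen, as were Foxa3, Nodal, Acvr2b, Gata3, Plat and Hand1. Of the list of other endoderm transcription factors, 1 result is not reported here. Members, lists and rules were chosen with earlier results of these data known. Alternatives were another filter, pseudocount (8), scaling, tool, block and window (5 kb), and leaving out each library.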

Additional observations from a re-analysis of the deposited data

How the results depend on the processing

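With 2 libraries per line, 2-fold changes were mostly not recovered in the simulated data, and depth in regions was lowest in C2 replicate 2. The share of regions called in the data was unlike the simulated share changed, so recovery may differ there. Of the member regions in C2 against OSKM, 21 were called (10.6% of all regions), 10 with quantile normalization (3.31%) and 32 in the authors' deposited table (13.2%). Leaving out each library gave 19 to 30 in C2 against OSKM, 33 to 43 in C3 against OSKM and 0 to 19 in C2 against C3, where all regions called ran from 6.38% to 24.7%, 17.1% to 22.6% and 0.321% to 8.87%. The last comparison had 2 calls with no filter on low values (2.01% of all). The H3K9me3 region at Gata4 was called (1) in the authors' deposited table in C2 and in C3 against OSKM, and leaving out each library gave 0 to 1 in C2. No label pairs the replicate numbers, and a single pair of numbers per comparison cannot show it. Replicate differences of the lines correlated at -0.054 (C2, OSKM), -0.041 (C3, OSKM) and 0.35 (C2, C3) in H3K27ac and 0.0024, 0.035 and 0.11 in H3K9me3. With a replicate block, 27 member regions were called in C2 against OSKM (16.9% of all regions), 45 in C3 against OSKM (27.2%), 16 in C2 against C3 (13.4%, against 0.0581% without the block) and 1 for H3K9me3 in C2 against OSKM. Members called on their sum without 1 library numbered 2 to 5 in C2 against OSKM, 4 to 7 in C3 against OSKM and 0 to 2 in C2 against C3. No member's H3K27ac peak in C2 replicate 2 exceeded a fold enrichment of 4.71 (Gata6). In C2 replicate 1 the highest peak of each gene with one ran from 5.48 (Gsc) to 8.66 (Hnf4a). With peaks of at least 5-fold enrichment, the genes with an H3K27ac peak in both C2 libraries thus fell from 5 to 0 through replicate 2. Those with an H3K9me3 peak fell from 1 to 0 in C2 and OSKM, as they did in a window of 5 kb. In that window HA peaks numbered 5 in C2 replicate 2 and 3 in Empty replicate 2. Signs turned for these sums and regions. In C2 against OSKM the Gata6 sum was -0.30 without C2 replicate 1, and that of Hnf4a 0.026 without C2 replicate 2 and 0.29 without OSKM replicate 2. The Gsc sum in C2 against C3 was -0.22, and turned to 0.80 within 5 kb, 0.12 without C2 replicate 2 and 0.20 without C3 replicate 2. The level Neil2 region was at 0.25 (C2), 0.052 (C3) and 0.21 (C2 against C3) with quantile normalization. Leaving out each library gave -0.077 (without C2 replicate 1) to 2.59 for the Gsc region chr12:104453601-104454157 in C2. For the highest Gsc region it gave -0.34 to 0.094 in C2 and -0.065 to 1.12 in C2 against C3. For the highest Foxa2 region in C2 against C3 it gave -1.23 to 0.019. The cause was not tested. Scaling moved the median of all regions from -0.013 to -0.13 (C2) and from 0.032 to -0.14 (C3) when libraries were median-centred. The share of all calls that were higher was 49.2% in C2 and 61.3% in C3, against 37.6% and 50.5% when median-centred and 62.2% and 55.0% with quantile normalization. In those fits the member regions called were 23 and 42, and 10 and 34.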
